A study of Homo sapiens with 4 samples.

Results

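The genes AP1B1, AP1G1, AP1M2, AP2A1 and AP2B1 encode 5 subunits of the clathrin adaptor complexes AP-1 and AP-2. They were taken by name from deposited tables of 1176 genes, and were chosen by values already known from these libraries: the tables hold only genes whose group means differ about 2-fold or more. The study measured RNA by sequencing in RCC4, a human clear cell renal carcinoma line labelled as epithelial and without functional VHL. It compared 2 libraries of wild-type cells given a control hairpin (shControl) with 2 libraries of MIRE knockdown cells that carried a MIRE hairpin (shMIRE), all infected with lentivirus, grown with serum and collected on day 3. RefSeq lists MIRE as a synonym of the long non-coding RNA gene SAP30-DT. Its level was not analysed here, so the knockdown itself was not checked. All samples came from 1 cell line and the labels name no separate infections, so the spread between libraries may be technical.

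Clathrin adaptors link the clathrin coat to membranes and to the cargo proteins packed into a vesicle. Each complex is built from a pair of large subunits, a medium (mu) subunit and a small (sigma) subunit. AP-1, which is unrelated to the transcription factor of the same name, works at the trans-Golgi network and endosomes, and AP-2 works at the plasma membrane, where it starts clathrin-mediated endocytosis. The large beta subunits bind clathrin, the gamma subunit of AP-1 and the alpha subunit of AP-2 help place each complex on its membrane, and the mu subunits read sorting signals in cargo. AP1M2 encodes mu1B, a mu subunit of epithelial cells that serves sorting to the basolateral surface.

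All 5 subunit genes were lower in the shMIRE libraries, and AP1B1 was the lowest relative to its control level. Values are those the authors deposited, whole numbers that look like read counts and may already be scaled between libraries. The groups did not overlap for any of the 5 genes, as was the case, in the same direction, for 60.0% of all listed genes. With limma, a linear model fitted over all 1176 genes, 5 of 5 were called lower at an adjusted p under 0.05, as were 59.0% of listed genes. The genes were listed for this difference, so neither count is a test of it. The median log2 fold change was -1.34 over the 5 genes and -1.16 over all listed genes, which include the higher ones. Among the lower genes alone, the share with a larger fall was 17.3% for AP1B1, 83.2% for AP1G1 and 56.9% for AP1M2. It was 88.8% for AP2A1 and 64.2% for AP2B1. All the subunits but AP1B1 thus fell less than the median lower gene. In bulk RNA, fewer expressing cells and less RNA per cell cannot be told apart.

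**Figure D1:**
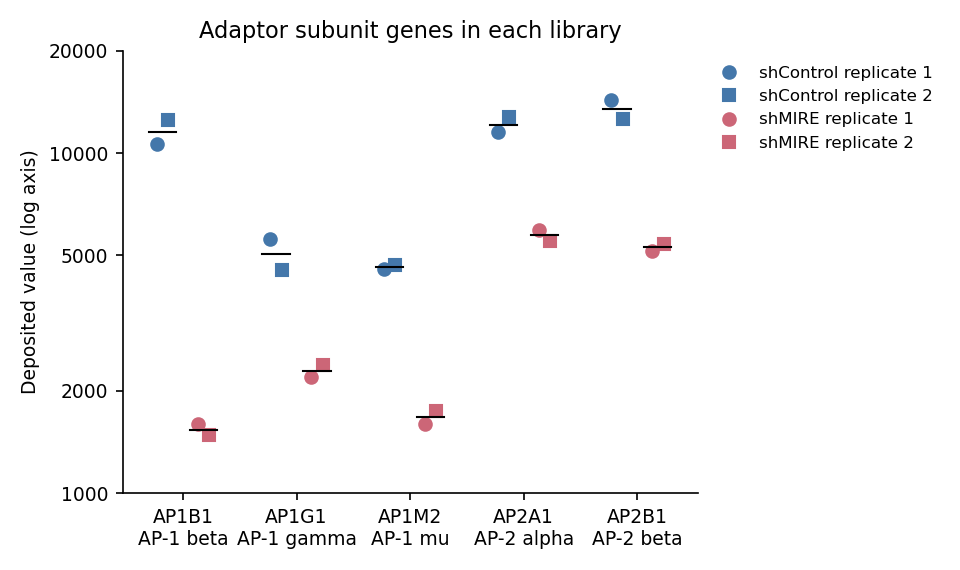
Deposited value (log axis) of each adaptor subunit gene in the 2 shControl libraries (blue) and the 2 shMIRE libraries (red), with circles for replicate 1, squares for replicate 2 and a black line at each group mean. In all 5 genes both red points lie below both blue points, and the gap is widest for AP1B1.

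AP1B1, the beta subunit of AP-1 (ENSG00000100280, chromosome 22, 29327680 to 29423179, minus strand), had deposited values of 10643 and 12494 (shControl replicates 1 and 2) against 1598 and 1478 (shMIRE replicates 1 and 2). The lowest control value was 6.66 times the highest shMIRE value, while replicates of a group differed by no more than 1.17 times. Its mean fell from 11568.5 ± 1309 to 1538 ± 84.9 (SD, n = 2), 7.52-fold, which left 13.3% of the control level. The log2 fold change with limma was -2.91 (standard error 0.103). Of the 713 genes with a lower mean in shMIRE it ranked 124 by size of the fall, and 84 of the 713 had a listed value of 0 in each shMIRE library. Among the 133 lower genes with a mean of at least 4000 in shControl, a level picked after the values were seen, 3 fell further. These were B4GALT1, a galactosyltransferase of the Golgi (15.7-fold), FEN1, a flap endonuclease of DNA replication (9.07-fold), and TSEN34, a subunit of the tRNA splicing endonuclease (8.36-fold).

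AP1G1, the gamma subunit of AP-1 (ENSG00000166747, chromosome 16, 71729000 to 71809201, minus strand), had deposited values of 5602 and 4522 (shControl) against 2191 and 2376 (shMIRE). Its control replicates differed most among the 5 genes, by 1.24 times, with replicate 1 the higher, and its shMIRE replicates lay close together. The mean fell from 5062 ± 764 to 2283.5 ± 131 (SD, n = 2), 2.22-fold, with a log2 fold change of -1.14 (standard error 0.124).

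AP1M2, the epithelial mu subunit (ENSG00000129354, chromosome 19, 10572671 to 10587315, minus strand), had deposited values of 4561 and 4701 (shControl) against 1592 and 1749 (shMIRE). Its control values were the tightest of the 5, differing by 1.03 times. The mean fell from 4631 ± 99.0 to 1670.5 ± 111 (SD, n = 2), 2.77-fold, with a log2 fold change of -1.47 (standard error 0.0795).

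AP2A1, an alpha subunit of AP-2 (ENSG00000196961, chromosome 19, 49766968 to 49807113, plus strand), had deposited values of 11525 and 12738 (shControl) against 5933 and 5518 (shMIRE). It kept the largest share of its control level among the 5, 47.2%. The mean fell from 12131.5 ± 858 to 5725.5 ± 293 (SD, n = 2), 2.12-fold, with a log2 fold change of -1.08 (standard error 0.0814). Of the lower listed genes, 88.8% had a larger fall, and the tables end close by: the smallest falls listed were 2.0-fold for ATP9A and MNAT1.

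AP2B1, the beta subunit of AP-2 (ENSG00000006125, chromosome 17, 35578046 to 35726409, plus strand), had deposited values of 14295 and 12608 (shControl) against 5155 and 5418 (shMIRE). It had the highest deposited value of the 5 in shControl on average, and ranked 28 among all listed genes there. The mean fell from 13451.5 ± 1193 to 5286.5 ± 186 (SD, n = 2), 2.54-fold, with a log2 fold change of -1.34 (standard error 0.0853). Among the listed genes AP1B1 moved from rank 39 by level in shControl to rank 292 in shMIRE, while AP2B1 moved to rank 89 and AP2A1 from rank 34 to rank 79.

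**Figure D2:**
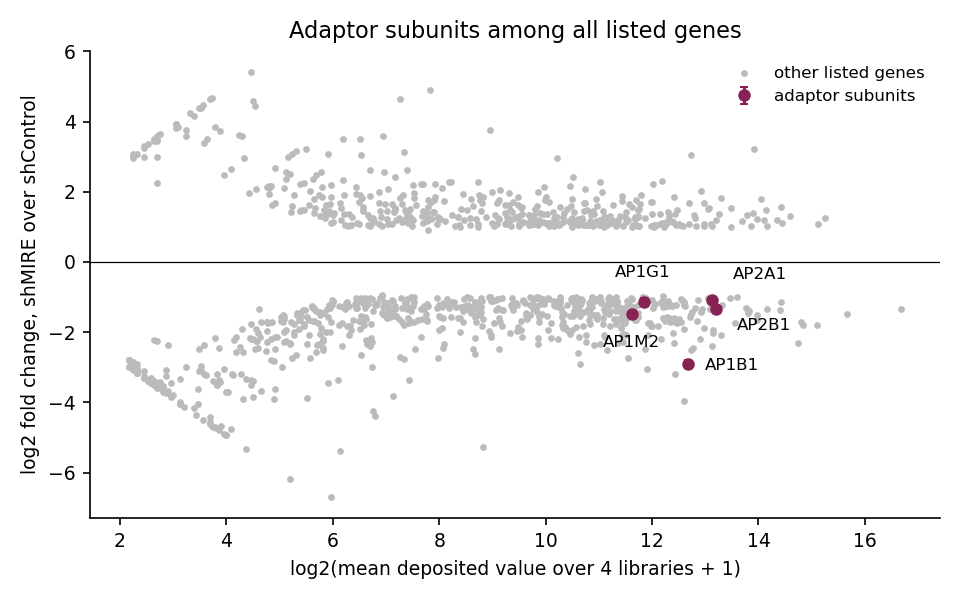
Log2 fold change of shMIRE over shControl against the log2 of the mean deposited value plus 1, for the 5 adaptor subunit genes (purple, with limma standard errors) and all other listed genes (grey). AP1G1, AP1M2, AP2A1 and AP2B1 lie in the dense band of lower genes, and AP1B1, at -2.91, lies below most genes of its level. The empty band around 0 is where the tables hold no genes.

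The balance between subunits was examined as ratios within a library, which do not depend on a scaling factor of that library. Values were divided by the length of all annotated exons of a gene, 6721 bases for AP1B1, 10980 for AP1G1, 2214 for AP1M2, 8746 for AP2A1 and 7587 for AP2B1. On this scale AP1M2 was the highest in shControl at 2092 ± 44.7 per kb, followed by AP2B1 at 1773 ± 157, AP1B1 at 1721 ± 195, AP2A1 at 1387 ± 98.1 and AP1G1 at 461 ± 69.6 (SD, n = 2). The libraries of AP2B1 and AP1B1 overlapped, so their order was within the spread. In shMIRE the order was AP1M2 at 755 ± 50.1 per kb, AP2B1 at 697 ± 24.5, AP2A1 at 655 ± 33.6, AP1B1 at 229 ± 12.6 and AP1G1 at 208 ± 11.9 (SD, n = 2). There AP1B1 lay next to AP1G1, the lowest subunit in both groups. Neighbours in the shMIRE order, other than AP2A1 and AP1B1, differed by little more than the spread of their libraries.

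The order among the higher subunits rests on the length used. Divided by the longest coding transcript, AP2A1 was the highest in shControl at 3581 ± 253 per kb, followed by AP1B1 at 2770 ± 313, AP1M2 at 2636 ± 56.3, AP2B1 at 2359 ± 209 and AP1G1 at 726 ± 110 (SD, n = 2). Changes in a ratio between the groups are the same with either length.

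Within AP-1 the beta subunit lost ground to the other subunits. The ratio of AP1G1 to AP1B1 per kb was 0.322 and 0.222 in shControl replicates 1 and 2 and 0.839 and 0.984 in the shMIRE replicates. AP1G1 was thus well under the level of AP1B1 in the control libraries and near it in the shMIRE libraries. The log2 ratio rose by 1.77 (standard error 0.29, n = 2), 3.40-fold, against a standard deviation of 0.38 between control replicates. The ratio of AP1M2 to AP1B1 per kb went from 1.30 and 1.14 to 3.02 and 3.59, a log2 change of 1.44 (standard error 0.16). Per kb of the longest coding transcript it was 1.02 and 0.894 in shControl and 2.37 and 2.81 in shMIRE. The ratio of AP1G1 to AP1M2 moved less, from 0.248 and 0.194 to 0.278 and 0.274, a log2 change of 0.33 (standard error 0.18). AP1B1 made up 40.2% ± 2.96 of the summed per-kb level of the 3 AP-1 genes in shControl and 19.2% ± 1.86 in shMIRE (SD, n = 2). With the longest coding transcript these shares were 45.1% ± 3.20 and 22.4% ± 2.07.

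Within AP-2 the listed subunits stayed closer to each other. The ratio of AP2A1 to AP2B1 per kb was 0.699 and 0.876 in shControl and 0.998 and 0.883 in shMIRE. Per kb of the longest coding transcript it was 1.36 and 1.70 in shControl and 1.94 and 1.71 in shMIRE, so which of the subunits was the higher rests on the length used. The highest control value and the lowest shMIRE value almost met, and the log2 change of 0.26 (standard error 0.19, n = 2) was close to the standard deviation of 0.23 between control replicates. It was 0.10 without shControl replicate 1, 0.43 without shControl replicate 2 and 0.17 without shMIRE replicate 1. With 2 libraries against 2 an exact permutation test cannot go below a two-sided p of 0.333, so the ratios are given without a test.

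Between the complexes, the beta subunits parted and the other large subunits did not. AP2B1 per kb was 1.19 and 0.894 times AP1B1 in the control libraries, near equality. It was 2.86 and 3.25 times AP1B1 in the shMIRE libraries, a log2 change of 1.56 (standard error 0.23). With the longest coding transcript the ratio was 0.984 and 0.739 in shControl and 2.36 and 2.68 in shMIRE. AP1B1 made up 45.7% and 52.8% of the summed per-kb level of the 2 beta genes in shControl and 25.9% and 23.5% in shMIRE. With the longest coding transcript its share was 50.4% and 57.5% in shControl and 29.7% and 27.1% in shMIRE. The ratio of AP2A1 to AP1G1 was 2.58 and 3.54 in shControl and 3.40 and 2.92 in shMIRE (4.23, 5.79, 5.57 and 4.78 with the longest coding transcript), with overlapping groups and a log2 change of 0.06 (standard error 0.25). The remaining subunit genes, 5 of AP-1 (AP1G2, AP1M1, AP1S1, AP1S2 and AP1S3) and 3 of AP-2 (AP2A2, AP2M1 and AP2S1), were outside the tables and their levels were not analysed here. The ratios therefore describe the listed mRNAs and not whole complexes.

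**Figure D3:**
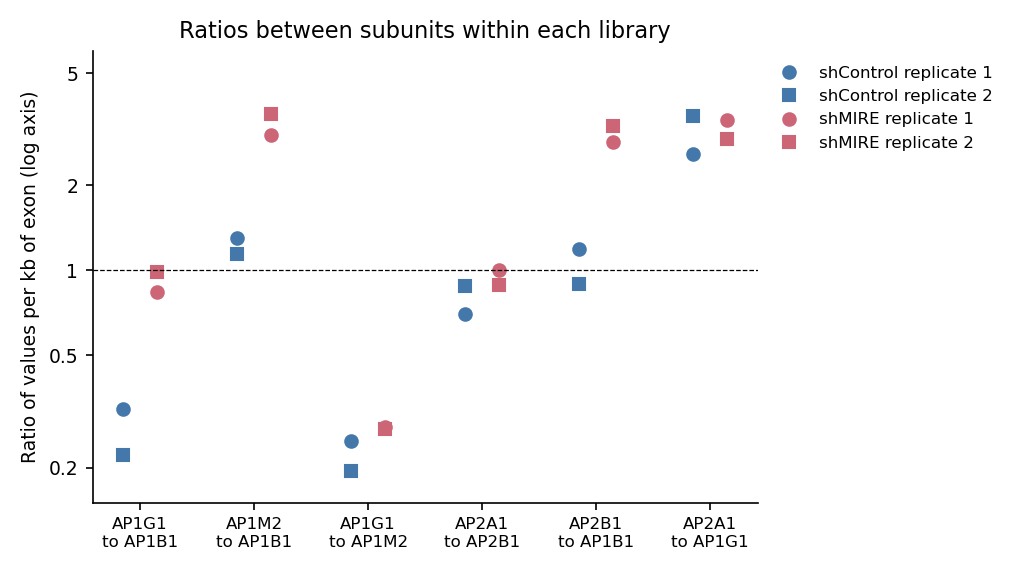
Ratio of 2 subunit genes within each library, after dividing each value by the kb of annotated exon (log axis; dashed line at 1), for 2 shControl libraries (blue) and 2 shMIRE libraries (red). The 3 ratios with AP1B1 as the denominator rise in shMIRE, while AP2A1 to AP1G1 overlaps between the groups.

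Few genes of 10 fixed lists of coats and membrane trafficking were in the tables. Across 10 lists of 158 genes, 11 were listed (6.96%), the 5 subunits among them, as were 5.87% of all 19951 protein-coding genes of GENCODE 29. Without the lists of AP-1 and AP-2 subunits, 6 of 145 were listed (4.14%). No set was filtered for expression in RCC4, so the shares are a description. Of the 11 genes 10 were lower and 1 higher, but the 5 subunits were chosen with their fall known. Without the subunits, 5 of 6 were lower. Among all listed genes 60.6% were lower. With limma all 11 passed, as did 97.5% of all listed genes. The median log2 fold change of the 11, with the 5 subunits included, was -1.47, against -1.16 over all listed genes. The latter set held a smaller share of lower genes, so these medians are not a like comparison. No gene of the lists of AP-3, AP-4 and AP-5 subunits (15 genes), clathrin chains and uncoating (9), GGA adaptors and AP-1 accessory proteins (19), cargo-specific clathrin adaptors (12) or retromer and sorting nexins (18) was in the tables. The lists do not cover all of membrane trafficking. The sorting nexin genes SNX11, SNX12 and SNX15, named after their values were seen, were in the tables outside the lists and lower in shMIRE. Further trafficking genes outside the lists were not searched for.

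Of 36 accessory proteins of clathrin-mediated endocytosis, 3 were listed and 3 fell. AMPH encodes amphiphysin, a membrane-bending protein that binds AP-2, clathrin and dynamin, and had deposited values of 2425 and 2314 (shControl) against 901 and 749 (shMIRE), 2.87-fold lower. Its relative BIN1, amphiphysin 2, had deposited values of 6162 and 7275 (shControl) against 3104 and 2458 (shMIRE), 2.42-fold lower, with no overlap between the groups. STON1, of the stonin family of endocytic adaptors, was low throughout, with 42 and 55 (shControl) against 14 and 19 (shMIRE). STON1 lies within the read-through gene STON1-GTF2A1L, so how its reads were divided is uncertain.

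Of 16 cargo receptors sorted by AP-1 or AP-2, 2 were listed and they moved in opposite directions. SORL1, a sorting receptor of the trans-Golgi network and endosomes, rose 3.06-fold, from 78 and 46 in shControl to 184 and 196 in shMIRE. LRP2, the endocytic receptor megalin of the proximal tubule, had 6 and 18 in the control libraries, and each shMIRE library listed it at 0. Of 20 genes of the COPI and COPII coats, which act between the endoplasmic reticulum and the Golgi, 1 was listed: COPZ2, a zeta subunit of COPI, had deposited values of 199 and 226 (shControl) against 75 and 71 (shMIRE), 2.91-fold lower. LRP2 was also the 1 listed gene of 12 markers of renal carcinoma and tubule, so this list could not check the labelled epithelial identity. Other epithelial genes were in the tables, such as ELF3, an epithelial transcription factor, and CRB3, an apical polarity protein, both named after their values were seen. ELF3 had 4790 and 5143 in the control libraries against 1618 and 1713 with shMIRE, and CRB3 had 3030 and 3444 against 1146 and 1255. The epithelial genes CLDN1 and GJB2, named in the same way, went the other way. CLDN1 had 2041 and 1871 (shControl) against 4761 and 4922 (shMIRE), and GJB2 had 1280 and 1243 against 2621 and 2472. Of 13 markers of other cell types, 1 was listed, the myeloid integrin gene ITGAM, with 73 and 53 (shControl) against 155 and 146 (shMIRE). The part of other cell types in the adaptor values was not tested.

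**Figure D4:**
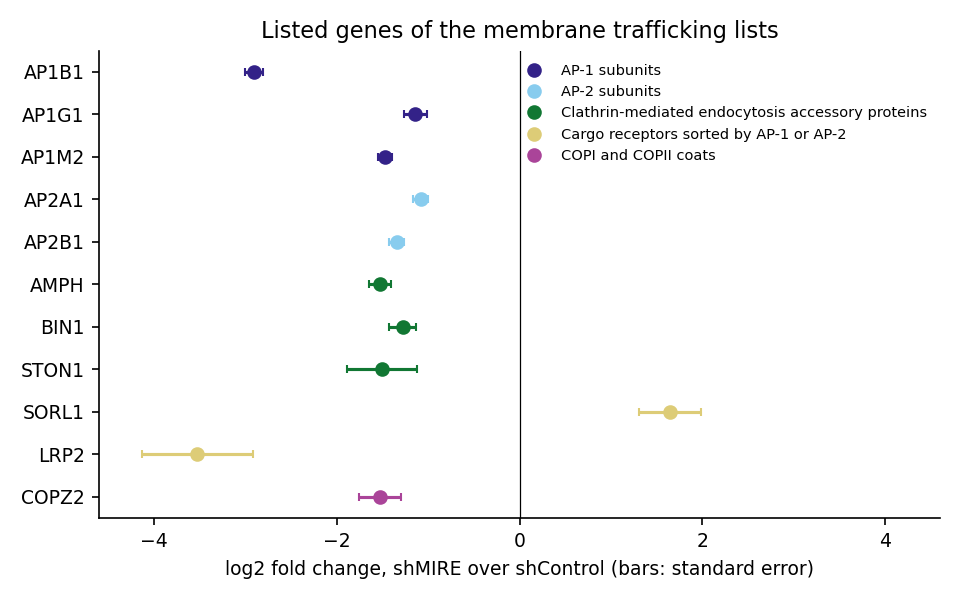
Log2 fold change of shMIRE over shControl, with limma standard errors as bars, for the 11 listed genes of the membrane trafficking lists, coloured by list. All but SORL1 lie left of 0, and LRP2, whose shMIRE values are both 0, depends on the pseudocount of 1.

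The 3′ UTRs of the subunit genes were searched for GCTGTGT, a heptamer that an earlier look at these same tables had found more often in lower genes. The longest annotated 3′ UTR of each gene was used, from GENCODE 29 (GRCh38, the build the files use). All 5 held exactly 1 copy. The heptamer was present in 289 of 704 lower listed genes with a 3′ UTR (41.1%), in 84 of 459 higher listed genes (18.3%) and in 17.2% of 17896 protein-coding genes outside the tables. Because the heptamer was picked on these genes, its presence in the 5 members is a description and no independent support. The sites are shown with 10 bases on each side, as mRNA-sense DNA from 5′ to 3′, with the heptamer in capitals.
AP1B1 (chr22:29327876-29327902, minus strand): tcctgttactGCTGTGTaataataaag
AP1G1 (chr16:71729062-71729088, minus strand): ttagaattctGCTGTGTgtactgtctt
AP1M2 (chr19:10572970-10572996, minus strand): gcaggtgcggGCTGTGTgtgtctgtgt
AP2A1 (chr19:49807063-49807089, plus strand): ccatccagggGCTGTGTattattgtga
AP2B1 (chr17:35724689-35724715, plus strand): aggcccgtcaGCTGTGTagtggcaaag

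Outside the heptamer the flanks differed between the genes, and so did the position. The copy began at base 929 of 1139 in the AP1B1 3′ UTR, 3980 of 4058 in AP1G1, 80 of 395 in AP1M2, 315 of 354 in AP2A1 and 1000 of 2710 in AP2B1. The 3′ UTRs thus differed more than 10 times in length, and the shortest, of AP1M2 and AP2A1, held the motif as well. Not every annotated coding transcript carries the site: it lay in the 3′ UTR of 4 of 5 transcripts of AP1B1, 1 of 4 of AP1G1, 3 of 5 of AP1M2, 2 of 2 of AP2A1 and 1 of 5 of AP2B1. Of the 8 subunit genes outside the tables, 1 carried the heptamer, AP1M1, with 2 copies in a 3′ UTR of 11472 bases. AMPH, BIN1 and STON1 carried 1 copy each, and COPZ2, LRP2 and the higher gene SORL1 carried 0. B4GALT1, with the largest fall among the high genes, had 3 copies, and FEN1 and TSEN34 had 2 each. C6orf89 and TRAFD1, which fell 2.24-fold and 2.71-fold, also had 2 each. A link between the number of copies and the size of the fall was not tested.

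**Figure D5:**
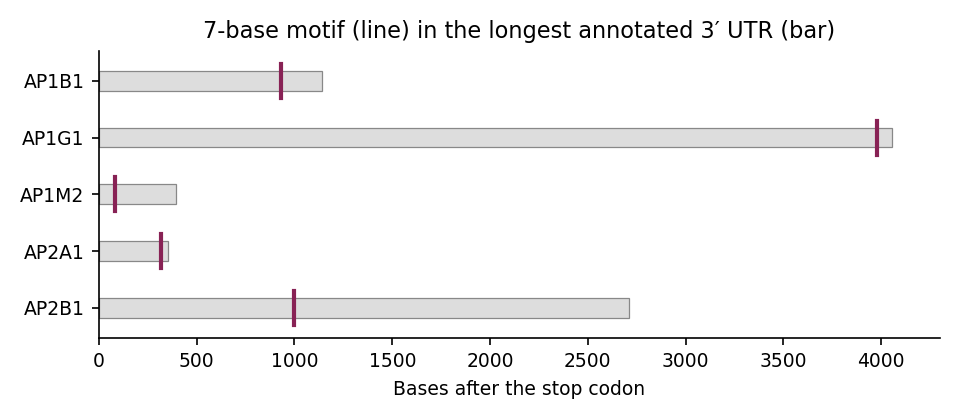
Longest annotated 3′ UTR of each subunit gene (grey bar, bases after the stop codon) with the position of the single copy of the 7-base motif (purple line). The copy lies near the distal end in AP1B1, AP1G1 and AP2A1 and in the proximal part in AP1M2 and AP2B1.

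The promoters of the 5 genes shared no motif among 9 searched. The 250 bases before each RefSeq start (GRCh38.p14) were searched on both strands, and overlapping matches were counted. The motifs were picked after these promoters had been read, and a match is only a string of letters. The cAMP response element TGACGTCA was found at 2 places before AP2B1 and in 1.77% of all 27305 promoters. The E-box CACCTG occurred 3 times before AP1M2 and in 17.5% of promoters, and the ETS site CCGGAAGT once before AP1B1 and in 3.64%. Stretches with these matches in capitals are shown because they set AP2B1, AP1M2 and AP1B1 apart from each other.
AP2B1 (chr17:35587216-35587286, plus strand): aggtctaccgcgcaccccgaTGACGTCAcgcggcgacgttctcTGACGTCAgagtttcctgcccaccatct
AP1M2 (chr19:10587313-10587389, minus strand): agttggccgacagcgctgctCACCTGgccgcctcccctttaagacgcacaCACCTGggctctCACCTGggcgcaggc
AP1B1 (chr22:29388571-29388612, minus strand): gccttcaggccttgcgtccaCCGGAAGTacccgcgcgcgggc

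The other motifs were as scattered. The CCAAT box, CCAAT, occurred before AP1B1 (1 match), AP1M2 (1) and AP2A1 (2) and in 33.0% of promoters. The GC box, GGGCGG, occurred 7 times before AP2A1, once before AP1B1 and in 42.3% of promoters. The YY1 site, GCCATNTT, occurred once each before AP1G1 and AP1M2 and in 3.91%. The TATA box TATAAA (11.1% of promoters), the core of the hypoxia response element ACGTG (18.7%) and the site TGANTCA of the transcription factor AP-1 (6.60%) were found before 0 of the 5 genes.

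The 2 beta genes, AP1B1 and AP2B1, are paralogs that shared no 50-base stretch. Their coding sequences, 2850 bases in AP1B1 and 2856 in AP2B1, were identical at 75.8% of 2832 aligned bases, and the longest identical stretch was 23 bases. Of all 50-base stretches in annotated transcripts, 1.84% in AP1B1, 0.403% in AP1G1, 0% in AP1M2, 2.96% in AP2A1 and 4.09% in AP2B1 also occurred in a transcript of another gene, on either strand. Shared stretches lay mainly in AC000041.1, an unprocessed pseudogene that overlaps AP1B1 by 4025 bases on the same strand, in FUZ, whose gene overlaps the end of AP2A1 by 245 bases on the opposite strand, and in AL359263.1 for AP2B1. The sources used here do not say whether strand was used in counting, so reads from overlaps between opposite strands cannot be assigned.

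The listed genes whose pattern was most like each subunit were found by the distance between log2(value + 1) profiles over the 4 libraries, each centred on its own mean, among 796 genes with a mean of at least 100. Nearest to AP1B1 were TSEN34 (distance 0.157), which had 6320 and 7301 (shControl) against 858 and 771 (shMIRE), and FEN1 (0.315). Both also fell between 8 and 10 times. Nearest to AP1G1 were PATJ, a tight junction polarity protein (0.0397), and C6orf89 (0.0638). Nearest to AP1M2 were TRAFD1 (0.0365) and the calmodulin gene CALM3 (0.0409), and nearest to AP2A1 were GTF3A, a transcription factor for ribosomal 5S RNA (0.0459), and CMTM3 (0.0470). Nearest to AP2B1 were PDZK1, a scaffold of membrane transporters in the proximal tubule (0.0220), and TRMT2B, a tRNA methyltransferase (0.0326). Between subunits the smallest distance was 0.208, between AP1M2 and AP2B1, and AP1B1 lay 1.45 to 1.83 from the other 4.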

How the data were processed

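RNA from 4 RCC4 libraries (shControl, n = 2; shMIRE, n = 2) was analysed from 1 deposited table per library, each with the same 1176 genes. The deposited value is a score: a whole number per gene that looks like a read count and may already be scaled between libraries. Replicates of a group agreed without rescaling (median ratio 1.02 for shControl, 1.01 for shMIRE). That agreement does not show whether the 2 groups were scaled to each other, on which the fold changes rest. Per the submitters' processing notes, which give no roles, the tools were DESeq2 1.20.0, featureCounts 1.5.0-p3 and HISAT2 2.0.5, with build hg38. Neither the scaling nor the rule for listing genes is stated in the sources used here. The sum of a library's listed values lay between 2002994 and 2514039. Whole-library depth is unknown, so no counting interval is given.

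Symbols were matched for 1175 of 1176 IDs. Groups were compared over all genes with limma 3.58.1 (R 4.3.3, intensity trend) on log2(value + 1), mean above 1 (all genes kept), with Benjamini-Hochberg adjustment at 0.05. On this scale the fold change of low genes is understated. The fit was tried on simulated data in which most genes did not change. The listed genes differ from that setting, so it does not check the calls made here. Folds are ratios of group means, and ± is a standard deviation. The members, the gene lists and the tests were chosen with earlier results of these data known. Named genes are the members, listed genes of the fixed lists, the 2 most similar genes per member and genes at the edge of the tables. Outside these rules, B4GALT1, ELF3, CRB3, CLDN1, GJB2, SNX11, SNX12 and SNX15 were named after their values were seen. Coordinates and 3′ UTRs (at least 20 bases, longest per gene) come from GENCODE 29. Promoters come from RefSeq. Python 3.11.15, pandas 2.3.3 and Biopython 1.88 were used. Alternatives were other scalings, pseudocounts, filters, thresholds and gene lengths, a replicate block and each library left out. A result that needs a withheld item is not reported here.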

Additional observations from a re-analysis of the deposited data

How the results depend on the processing

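All 5 subunit genes stayed lower in each of the 8 alternative fits read for them, 40 fold changes in all, with 0 reversed. They also stayed called with limma in the alternatives that kept all libraries. As the genes were listed for this difference, a reversal was unlikely from the start. Equal sums of the listed values and quantile normalisation shifted the median over all listed genes upward by 0.30 and 0.32 (log2). The log2 fold change then became -2.60 and -2.61 for AP1B1, -0.84 and -0.73 for AP1G1, -1.17 and -1.06 for AP1M2, -0.78 and -0.81 for AP2A1 and -1.04 and -1.12 for AP2B1, so that AP1G1 and AP2A1 came under a 2-fold fall. Ratios were unaffected by equal sums. With quantile normalisation the log2 change was 1.88 for AP1G1 to AP1B1, 0.31 for AP2A1 to AP2B1 and 1.49 for AP2B1 to AP1B1. With 1 library left out it ranged from 1.5 to 2.04, 0.10 to 0.43 and 1.36 to 1.77 in that order. Of all listed genes, 1147 passed with limma, 827 to 900 with 1 library left out (a single library takes its spread from the other group), 1000 with quantile normalisation, 920 at an adjusted p under 0.01 and 1104 to 1147 under the other alternatives without a block. With the replicate number as a block 1175 passed and the ratio changes stayed at 1.77, 0.26 and 1.56. The correlation between libraries with the same number, as deviations from group means, was 0.0321, and the libraries were treated as unpaired.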

Other observations

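Of the 10 genes nearest in pattern to the adaptor subunits, 5 carried the heptamer GCTGTGT in the longest annotated 3′ UTR, beside 41.1% of all lower listed genes, among which it was picked: TSEN34, FEN1, TRAFD1 and C6orf89 with 2 copies each, and TRMT2B with 1. PATJ, CALM3, GTF3A, CMTM3 and PDZK1 carried 0 copies.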
